A study of Homo sapiens with 6 samples.

Results

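The genes described here encode the machinery that starts, controls and finishes transcription by RNA polymerase II (Pol II): the polymerase subunits, the general transcription factors, the TBP-associated factors (TAFs), Mediator, Integrator and the pausing and elongation kinases. They were chosen by symbol: every gene whose symbol begins with POLR2, GTF2 or INTS, or with MED or TAF followed by a digit, plus TBP and a fixed group of pausing and elongation genes. That gave 118 of the 30051 genes in the count table, 114 of them protein-coding and 4 long non-coding antisense or overlapping genes (INTS6-AS1, MED14OS, MED4-AS1 and TAF1A-AS1). A further 7 pseudogenes that share these prefixes were left out, and TAF9 and GTF2H4 were not analysed here. After a filter on low counts, 105 members were tested among 13341 genes and 13 were not.

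The cells were MDA-MB-231, a long-established human triple-negative breast cancer line, and all libraries came from this 1 line, so the values describe this line only. One group received DMSO, the solvent, and the other received panobinostat, an inhibitor of histone deacetylases, at 50 nM; both were harvested at 24 h. Each group had 3 RNA-seq libraries, numbered 1, 2 and 3 for DMSO and 1, 2 and 4 for panobinostat, and the submitters describe the repeats as independent. The labels name no other allele, construct or treatment in either group.

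Library totals ran from 5389638 to 15106148 counts. VIM, CD44, AXL, CAV1 and SNAI2, markers of this mesenchymal line, were all read, with VIM at a mean of 2560 CPM in DMSO, where CPM is the count per 1000000 counts after TMM scaling of library size. Of 9 luminal and epithelial markers, ESR1, PGR, CDH1 and CLDN3 were under 1 CPM in both group means. FOXA1 was at 0.946 and 1.93 CPM, CLDN7 at 15.4 and 15.5 CPM, EPCAM fell from 18.5 to 11.1 CPM, GATA3 fell from 11.8 to 5.34 CPM and CLDN4 rose from 1.23 to 4.03 CPM; their part in the results was not tested. Of the markers of other cells, PTPRC (leukocytes) was at 0 and 0.122 CPM and CD68 (macrophages) at 0.136 and 0.148 CPM in DMSO and panobinostat. Other annotated genes overlap 85.8% of the exon bases of CD68, 81.7% on the same strand, so its low value is not read as absence. PECAM1 (endothelium) was read at 6.86 CPM in DMSO and was not called, and CD14 (monocytes) rose from 0.522 to 2.45 CPM. VWF and CDH5, also endothelial, did not pass the filter. Panobinostat replicate 4 lay between the controls and the other treated libraries: over the called members its distance from the DMSO mean was a median 48.2% of that of replicates 1 and 2, against 52.8% over all called genes. Values without it are therefore given where they matter. The experiment measured RNA from many cells at once, so less RNA per cell and fewer cells that make it cannot be told apart.

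Pol II makes all messenger RNA. At a promoter, TFIID, built from TBP and TAFs, and TFIIB, TFIIE, TFIIF and TFIIH assemble the polymerase, while Mediator links it to DNA-bound activators. Shortly after the start the polymerase pauses under NELF and SPT5 until the kinase P-TEFb, which the 7SK RNA complex holds in reserve, releases it; Integrator can instead cleave the nascent RNA and end transcription. Histone deacetylase inhibitors raise histone acetylation, which recruits bromodomain proteins and P-TEFb.

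The promoters of the members on which the results turn are shown first, so that the letters upstream of each start stand beside the changes reported below. They are the 3 with the largest called rises, the 3 with the largest called falls that had an entry, the largest polymerase subunit, and SUPT5H, the sole called rise among pausing and elongation genes. Each line is the 250 bases before the annotated start, 5′ to 3′ on the gene's strand, from RefSeq on GRCh38.p14. For TAF12 and MED20 the annotated start lies inside the gene's span, so the TAF12 window is wholly, and the MED20 window partly, within the gene. Capitals mark 6 motifs, searched on either strand. They are the core of the TATA box, spelled TATAAA, the box bound by the factor NF-Y, spelled CCAAT, and the box bound by Sp1, spelled GGGCGG. The other 3 are the core site of ETS factors, spelled CCGGAA, the E-box bound by MYC and USF, spelled CACGTG, and the core of the cAMP response element, spelled TGACG. A motif on the other strand appears as its reverse complement, and CACGTG and TGACG overlap in the GTF2B line.
TAF12, chr1:28643068-28643317, minus strand: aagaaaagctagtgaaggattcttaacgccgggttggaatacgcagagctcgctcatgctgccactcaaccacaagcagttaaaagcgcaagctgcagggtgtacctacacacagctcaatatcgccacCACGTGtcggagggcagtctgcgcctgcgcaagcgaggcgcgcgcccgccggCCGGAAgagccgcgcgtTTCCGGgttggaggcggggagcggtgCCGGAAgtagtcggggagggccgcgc
MED20, chr6:41920944-41921193, minus strand: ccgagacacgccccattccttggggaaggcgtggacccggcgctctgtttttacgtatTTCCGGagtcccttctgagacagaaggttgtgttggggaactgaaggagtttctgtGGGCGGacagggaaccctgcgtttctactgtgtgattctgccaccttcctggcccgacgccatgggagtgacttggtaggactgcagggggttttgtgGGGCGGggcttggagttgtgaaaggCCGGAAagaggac
GTF2B, chr1:88891568-88891817, minus strand: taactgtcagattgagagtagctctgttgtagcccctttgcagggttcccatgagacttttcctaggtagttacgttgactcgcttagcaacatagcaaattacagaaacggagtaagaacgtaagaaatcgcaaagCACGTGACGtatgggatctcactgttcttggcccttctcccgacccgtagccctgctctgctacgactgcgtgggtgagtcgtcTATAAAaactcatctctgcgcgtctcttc
INTS6, chr13:51453037-51453286, minus strand: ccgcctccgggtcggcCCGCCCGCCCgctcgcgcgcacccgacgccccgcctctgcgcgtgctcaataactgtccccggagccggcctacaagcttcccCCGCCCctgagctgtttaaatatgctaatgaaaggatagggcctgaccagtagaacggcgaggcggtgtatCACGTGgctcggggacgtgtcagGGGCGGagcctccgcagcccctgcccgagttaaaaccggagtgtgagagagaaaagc
LARP7, chr4:112636893-112637142, plus strand: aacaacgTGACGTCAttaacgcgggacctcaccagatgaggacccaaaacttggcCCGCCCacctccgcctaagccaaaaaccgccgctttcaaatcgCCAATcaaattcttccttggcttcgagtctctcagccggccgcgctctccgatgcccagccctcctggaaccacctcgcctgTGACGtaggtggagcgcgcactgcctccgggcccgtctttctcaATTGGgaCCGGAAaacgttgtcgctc
INTS14, chr15:65611132-65611381, minus strand: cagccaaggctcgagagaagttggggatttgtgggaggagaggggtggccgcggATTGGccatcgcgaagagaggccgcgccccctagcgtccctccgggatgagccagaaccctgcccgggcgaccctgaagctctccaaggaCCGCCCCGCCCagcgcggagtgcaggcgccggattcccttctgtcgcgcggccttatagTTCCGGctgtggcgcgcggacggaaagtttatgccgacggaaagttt
POLR2A, chr17:7484116-7484365, plus strand: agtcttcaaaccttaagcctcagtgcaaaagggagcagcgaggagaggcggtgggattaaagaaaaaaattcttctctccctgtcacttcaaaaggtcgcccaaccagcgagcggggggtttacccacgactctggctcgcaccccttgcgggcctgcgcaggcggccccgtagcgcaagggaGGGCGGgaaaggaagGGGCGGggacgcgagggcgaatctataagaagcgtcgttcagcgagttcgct
SUPT5H, chr19:39445332-39445581, plus strand: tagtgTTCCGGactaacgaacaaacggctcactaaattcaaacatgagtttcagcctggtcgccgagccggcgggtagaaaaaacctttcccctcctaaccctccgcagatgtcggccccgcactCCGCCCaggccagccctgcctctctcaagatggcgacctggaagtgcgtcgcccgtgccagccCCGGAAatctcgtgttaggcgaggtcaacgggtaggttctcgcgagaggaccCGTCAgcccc

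Of the 118 members, 92 had a promoter entry. CCGGAA stood in 44.6% of these windows, against 14.8% of 27305 promoters of all genes and 25.5% of 9975 promoters of tested genes. It was in 47.6% of the 21 windows of members that rose, 37.9% of the 29 of members that fell and 50.0% of the 32 of members not called. CACGTG was in 15.2% of member windows and 8.76% of those of tested genes. TATAAA was in 6.52% and 5.22%, CCAAT in 34.8% and 35.4%, GGGCGG in 62.0% and 67.7%, and TGACG in 30.4% and 29.9%. Among the printed windows TATAAA occurs in GTF2B alone, from 29 to 24 bases before the start. These are matches of letters only.

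The sum of these genes moved little, while single genes moved in both directions. The summed CPM of all members went from 7320 ± 21.4 to 6955 ± 90.2 (SD, n = 3 per group), a ratio of 0.95. Within that sum 25 members rose and 38 fell at an adjusted p under 0.05, where 30.2% of all tested genes rose and 28.6% fell. The members' shares were 23.8% and 36.2%. In all, 60.0% of the tested members were called, close to the 58.9% of all tested genes, and the median log2 fold change was -0.05 against 0.0. All 3 treated values lay above all controls in 33 members and below them in 43, 72.4% of the tested members together. Over all tested genes those shares were 34.9% and 34.1%, or 68.9% together.

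The changes were mostly small. A rise of at least 2-fold was called for 3 members, TAF12, MED20 and GTF2B, where 10.9% of all tested genes rose that far. A fall of at least 2-fold was called for 3 members, GTF2IRD2, GTF2IRD2B and GTF2I, where 4.66% of all genes fell that far. Without panobinostat replicate 4, 35 members rose and 46 fell, where 37.7% and 37.2% of all genes did. Falls of at least 2-fold then numbered 5, where 8.94% of all genes fell that far. Without DMSO replicate 1, 16 members rose. The plot of changes by class shows rises and falls in every class except the GTF2I family.

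**Figure D1:**
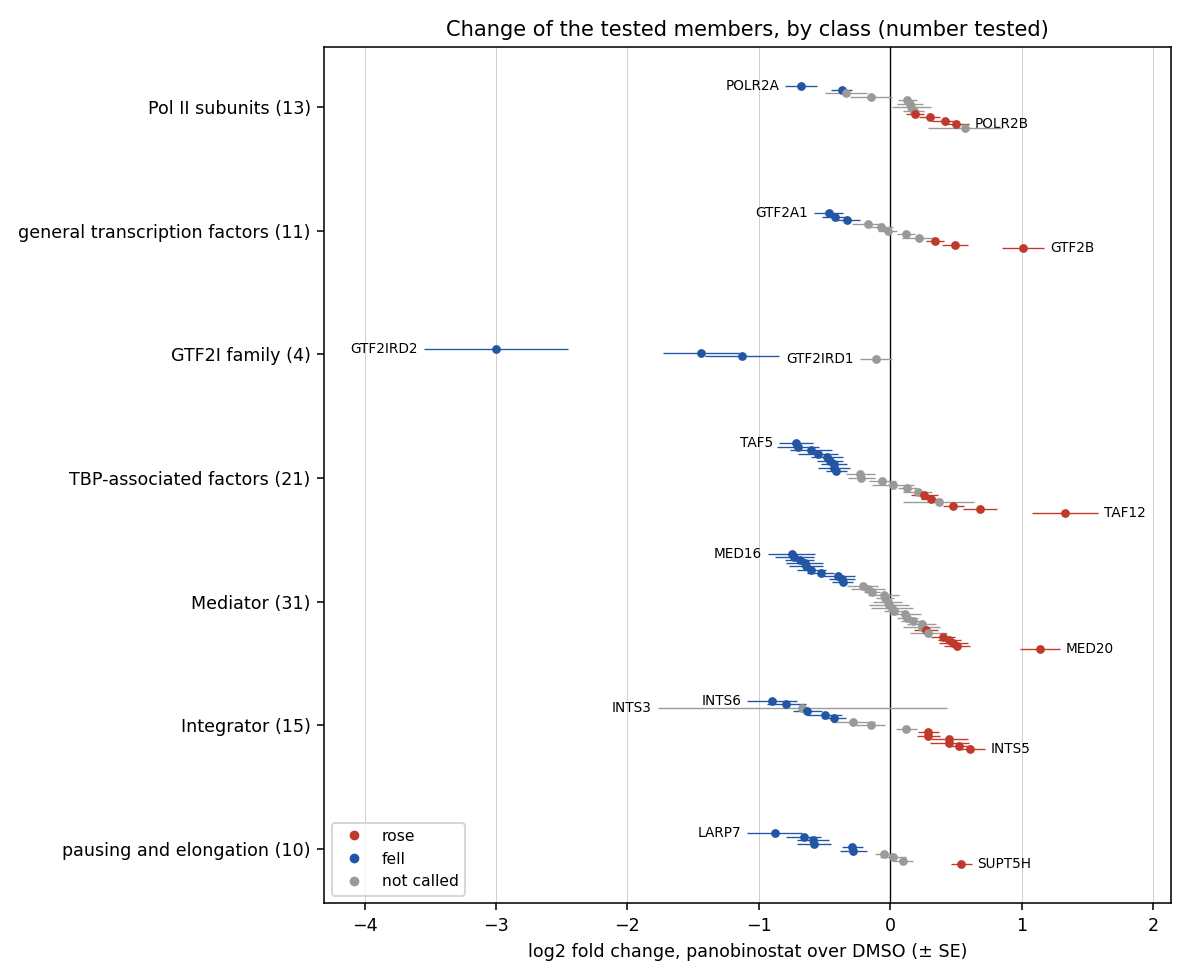
Log2 fold change of panobinostat over DMSO for the 105 tested members, 1 point per gene with its standard error, grouped by class; red points rose, blue points fell and grey points were not called. TAF12 at 1.33 and MED20 at 1.14 lie farthest to the right, GTF2IRD2 at -3.0 farthest to the left, and most other members lie within 1 unit of 0.

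The 2 largest subunits of Pol II went in opposite directions. Among 13 tested subunit genes, POLR2B, POLR2E, POLR2L and POLR2C rose, POLR2A and POLR2D fell and 7 were not called, with a median log2 fold change of 0.16. The shares were 30.8% and 15.4%, where 30.2% of all tested genes rose and 28.6% fell. The summed CPM of the subunit genes was 1564 ± 9.49 in DMSO and 1659 ± 87.6 with panobinostat (SD, n = 3). Without panobinostat replicate 4, 9 rose and 3 fell, and leaving out DMSO replicate 1 or 2, or else panobinostat replicate 1 or 2, left 2 rises.

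POLR2A (chr17:7484366-7514616) encodes RPB1, the catalytic subunit whose C-terminal repeats are phosphorylated during the transcription cycle. It was read at 442, 433 and 447 CPM in DMSO and at 252, 237 and 334 CPM in panobinostat replicates 1, 2 and 4. All treated values lay below all controls, with replicate 4 closest to them. The log2 fold change was -0.68 ± 0.12 (SE; edgeR quasi-likelihood test, Benjamini-Hochberg adjusted p = 0.00299).

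POLR2B (chr4:56978896-57031158) encodes RPB2, which forms the active site together with RPB1. Its values were 321, 305 and 303 CPM in DMSO and 483, 464 and 365 CPM with panobinostat. The groups again did not overlap, now in the other direction, with a log2 fold change of 0.50 ± 0.10 (edgeR adjusted p = 0.00498). In CPM per kb of exon, POLR2A was at 52.8 and POLR2B at 52.5 in DMSO, and at 32.8 and 74.1 after treatment. This length counts every annotated exon base of a gene and may differ from that of the transcripts made. The 2 genes are therefore compared only roughly on this scale. Within each library the log2 ratio of POLR2A to POLR2B counts was 0.46, 0.51 and 0.56 in DMSO and -0.93, -0.97 and -0.13 with panobinostat. This ratio was chosen after its values were seen and is given as a description.

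The other called subunits moved by less. POLR2E, shared by all 3 nuclear polymerases, went from 198, 225 and 210 CPM to 290, 312 and 244 CPM, a log2 fold change of 0.42 ± 0.10 (edgeR adjusted p = 0.00752). POLR2L is also shared, and 22.5% of its exon bases overlap a gene on the other strand. POLR2L had the highest level per length of all members, 151 CPM per kb in DMSO and 185 with panobinostat. Its log2 fold change was 0.30 ± 0.08, and the call was lost when any library except panobinostat replicate 4 was left out (edgeR adjusted p up to 0.0685). POLR2C, an assembly subunit, was called at 0.19 ± 0.07 and lost that call under DESeq2 and with each library except replicate 4 left out. POLR2D, part of the stalk near the RNA exit, was the tightest fall: 56.8, 56.6 and 56.9 CPM against 42.7, 43.0 and 46.5 CPM, a log2 fold change of -0.37 ± 0.08 (edgeR adjusted p = 0.00544).

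The remaining core subunits, POLR2G, POLR2H, POLR2I, POLR2J and POLR2K, had log2 fold changes between -0.15 and 0.18 and were not called. POLR2G, POLR2H, POLR2J and POLR2K were called higher without panobinostat replicate 4, at 0.23, 0.22, 0.26 and 0.16. POLR2M, whose product Gdown1 binds Pol II and competes with TFIIF, was at -0.34 ± 0.16 and was not called with all libraries. It was called lower without panobinostat replicate 4, at -0.53, and 21.1% of its exon bases overlap GCOM1 on the same strand. POLR2J has near-identical copies on chromosome 7, POLR2J2 and POLR2J3, so its counts are uncertain.

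**Figure D2:**
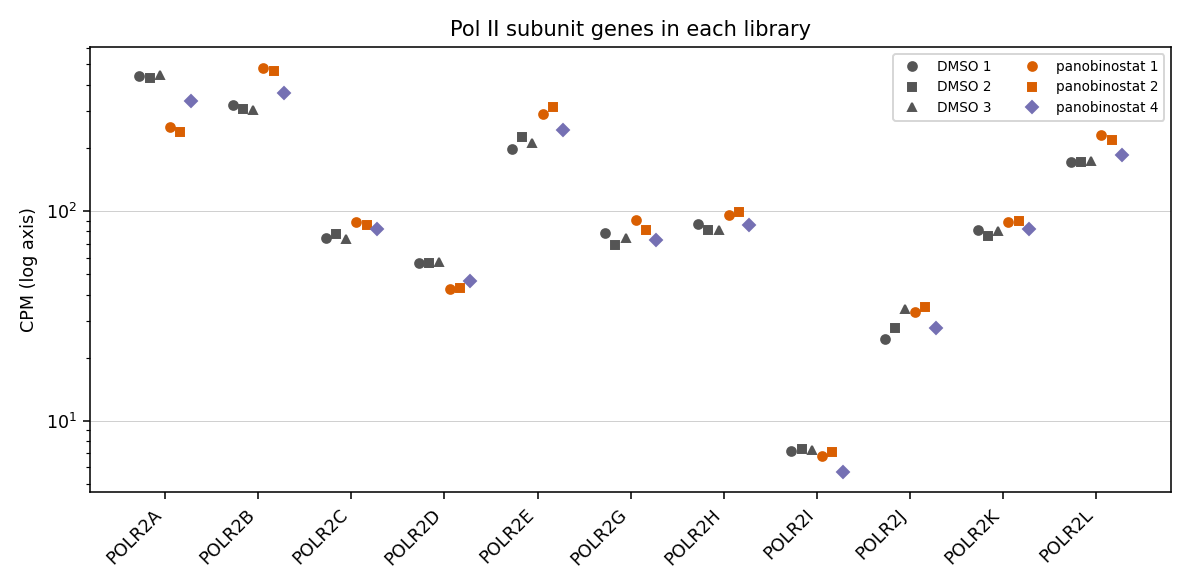
CPM of the 11 tested core Pol II subunit genes in each library on a log axis; grey symbols are DMSO libraries, orange symbols panobinostat replicates 1 and 2, and purple diamonds panobinostat replicate 4. POLR2A falls from 433 to 447 CPM to between 237 and 334 CPM, while POLR2B rises from 303 to 321 CPM to between 365 and 483 CPM.

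Among the general transcription factors, TFIIB stood apart. Of 11 tested genes 3 rose (GTF2B, GTF2E2 and GTF2F2), 3 fell (GTF2A1, GTF2H3 and GTF2H1) and 5 were not called. Rises and falls were 27.3% each, near the 30.2% and 28.6% of all tested genes. GTF2B (chr1:88852633-88891567) encodes TFIIB, which bridges TBP and the polymerase and helps to set the start site. It was read at 36.4, 30.2 and 32.0 CPM in DMSO and at 73.6, 74.9 and 51.0 CPM with panobinostat. Every treated library was above every control, and the log2 fold change was 1.01 ± 0.16 (edgeR adjusted p = 0.00201).

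TBP, which binds the TATA box within TFIID, was level: 32.4, 32.5 and 32.2 CPM against 31.5, 28.7 and 31.6 CPM, with a log2 fold change of -0.07 ± 0.09. GTF2E2, the smaller TFIIE subunit, changed by 0.49 ± 0.10 (edgeR adjusted p = 0.00526), whereas GTF2E1, the larger, was at 0.22 ± 0.13 and not called. GTF2F2, the smaller TFIIF subunit, changed by 0.34 ± 0.07 (edgeR adjusted p = 0.00502), and its partner GTF2F1 was at -0.02 ± 0.07. With all libraries the smaller subunit was thus called in both factors and the larger in neither. Without panobinostat replicate 4, GTF2E1 was also called higher, at 0.32, and GTF2F1 was not called. Whether the subunits differ was not tested. GTF2A1, the large precursor chain of TFIIA, went from 198, 203 and 191 CPM to 123, 134 and 169 CPM, a log2 fold change of -0.47 ± 0.11 (edgeR adjusted p = 0.00843).

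TFIIH opens the promoter DNA and carries the CDK7 kinase. GTF2H3, a core subunit, fell by 0.42 ± 0.10 on the log2 scale (edgeR adjusted p = 0.00760). GTF2H1, another core subunit, fell by 0.33 ± 0.10 and lost the call when DMSO replicate 1 or 3, or panobinostat replicate 1 or 2, was left out. GTF2H5, a small subunit, was at -0.17 ± 0.12 and not called with all libraries. Without panobinostat replicate 4 it was called lower, at -0.26. CDK7 did not pass the filter, with 23 counts over the DMSO libraries and 56 over the panobinostat libraries. Fitted with no filter, it was called at 1.07 ± 0.42 on those counts (edgeR adjusted p = 0.0418). The groups overlapped, at 0.592, 1.42 and 0.928 CPM in DMSO and 1.96, 0.915 and 3.15 CPM with panobinostat.

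The deepest falls were in the GTF2I family. GTF2I encodes TFII-I, a multifunctional factor of the region deleted in Williams-Beuren syndrome, and belongs to the set by its symbol rather than by work at every promoter. GTF2I (chr7:74657718-74760692) went from 34.8, 37.8 and 39.6 CPM to 14, 10.6 and 26.7 CPM. The groups did not overlap, and the log2 fold change was -1.13 ± 0.28 (edgeR adjusted p = 0.00943), or -1.51 without panobinostat replicate 4.

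GTF2IRD2B fell from 4.73, 4.26 and 4.64 CPM to 1.18, 1.65 and 2.55 CPM, by 1.44 ± 0.29 on the log2 scale. GTF2IRD2 was read at 3.55, 1.70 and 1.70 CPM and then at 0.196, 0.183 and 0.600 CPM, on 65 counts over DMSO against 8 over panobinostat. Its fitted log2 fold change of -3.0 ± 0.55 (edgeR adjusted p = 0.00343) rests on those few counts. GTF2I, GTF2IRD2 and GTF2IRD2B have near-identical copies nearby on chromosome 7, so the split of reads among them is uncertain. GTF2IRD1, the family member without such a copy, was at -0.11 ± 0.12 and was not called. No family member rose by edgeR, where 30.2% of all tested genes did. The count was also 0 of 4 at an unadjusted edgeR p under 0.05, and 0 by DESeq2 and by limma-voom.

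More TAFs fell than rose. Of 21 tested genes, 5 rose (23.8%, against 30.2% of all tested genes), 9 fell (42.9%, against 28.6%) and 7 were not called. The 21 include the non-coding antisense gene TAF1A-AS1, grouped here by its symbol, at 0.37 ± 0.27 and not called. The median log2 fold change was -0.22, and the summed CPM went from 1292 ± 13.8 to 1101 ± 85.3 (SD, n = 3). Without DMSO replicate 1, 3 rose. Within the 14 TAFs of TFIID, 4 rose and 6 fell. TAF12 (chr1:28602850-28648269), a histone-fold subunit of TFIID and SAGA, had the largest called rise of all members. It was read at 4.06, 3.26 and 3.56 CPM in DMSO and 11.1, 9.89 and 6.30 CPM with panobinostat, a log2 fold change of 1.33 ± 0.25 (edgeR adjusted p = 0.00348). Its printed window ends at a RefSeq start inside this span and holds 3 matches to CCGGAA.

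TAF3, which reads trimethylated histone H3 lysine 4, rose from 42.3, 51.1 and 48.9 CPM to 76.7, 87.9 and 62.8 CPM, by 0.68 ± 0.13 on the log2 scale (edgeR adjusted p = 0.00426). TAF13, the histone-fold partner of TAF11, rose by 0.48 ± 0.08 (edgeR adjusted p = 0.00305), while TAF11 itself was at 0.21 ± 0.11 and not called. Without panobinostat replicate 4, TAF11 was called higher, at 0.18. TAF6, a histone-fold scaffold subunit, rose by 0.31 ± 0.08. Its call was lost with no filter and without DMSO replicate 1, and 28.3% of its exon bases overlap other genes on the opposite strand.

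TAF5, the scaffold on which the TFIID lobes are built, went from 66.3, 65.7 and 67.9 CPM to 37.1, 35.2 and 49.0 CPM. All 3 treated libraries were below the controls, and the log2 fold change was -0.72 ± 0.13 (edgeR adjusted p = 0.00292). TAF9B, a relative of TAF9, fell by 0.55 ± 0.15 and lost the call without DMSO replicate 1 or 2 or without panobinostat replicate 1. TAF1, the largest subunit, TAF2, TAF7 and TAF8 also fell, by 0.43, 0.41, 0.46 and 0.43. For TAF8 the call was lost without DMSO replicate 1 or 2.

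TAF5L and TAF6L, the forms used in the SAGA coactivator, fell by 0.48 ± 0.12 and 0.60 ± 0.16. TAF1D, which belongs to the Pol I factor SL1 and not to TFIID, went from 121, 123 and 122 CPM to 61.0, 65.9 and 97.8 CPM. Its log2 fold change was -0.70 ± 0.16 (edgeR adjusted p = 0.00745). Its SL1 partners TAF1A and TAF1B were not called, and TAF1C was called at 0.26 ± 0.10, a call lost under DESeq2 and on leaving out DMSO replicate 1 or 2 or panobinostat replicate 1 or 2. Without panobinostat replicate 4, TAF1A was called lower, at -0.20.

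Mediator held its largest rise in the head, and falls in all 4 modules. Of 31 tested genes, 6 rose (19.4%, against 30.2% of all tested genes), 10 fell (32.3%, against 28.6%) and 15 were not called. The summed CPM went from 1695 ± 27.9 to 1577 ± 25.8 (SD, n = 3). Schemes differ in where they place MED27 to MED30, which are counted here with the head. By module, 3 rose and 3 fell of 11 in the head, 1 and 3 of 9 in the middle, 1 and 2 of 5 in the tail, and 1 and 2 of 5 in the kinase module. MED14, the backbone that joins the modules, was at 0.03 ± 0.08 and not called.

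MED20 (chr6:41905354-41921139), a head subunit that pairs with MED18, was read at 69.3, 63.9 and 64.1 CPM in DMSO and at 166, 157 and 111 CPM with panobinostat. The lowest treated library was far above the highest control, and the log2 fold change was 1.14 ± 0.15 (edgeR adjusted p = 0.00108). Its partner MED18 was at -0.21 ± 0.12 and not called with all libraries, but was called lower without panobinostat replicate 4, at -0.27. MED29 rose by 0.45 ± 0.09 (edgeR adjusted p = 0.00458). MED22 and MED28, also in the head, fell by 0.60 and 0.36, and 32.1% of the exon bases of MED28 overlap a gene on the other strand.

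In the middle module MED1, the subunit bound by nuclear receptors, went from 189, 181 and 171 CPM to 129, 130 and 161 CPM. The log2 fold change was -0.37 ± 0.10, and the call was lost without DMSO replicate 1 (edgeR adjusted p = 0.0579). MED10, at the hook that contacts the initiation complex, went from 46.3, 47.1 and 42.4 CPM to 25.5, 27.8 and 31.3 CPM, a log2 fold change of -0.69 ± 0.11 (edgeR adjusted p = 0.00194). MED26, which docks elongation factors and is absent from Mediator that carries the kinase module, went from 17.8, 17.6 and 17.3 CPM to 26.1, 25.4 and 23.2 CPM. Its log2 fold change was 0.51 ± 0.10 (edgeR adjusted p = 0.00458), and 50.1% of its exon bases overlap other annotated genes, 41.9% on the same strand.

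In the tail, which contacts activators, MED16 went from 40.1, 45.4 and 47.5 CPM to 22.3, 22.3 and 34.6 CPM, a log2 fold change of -0.75 ± 0.18 (edgeR adjusted p = 0.00815). MED24, its neighbour in the tail, fell by 0.65 ± 0.14 (edgeR adjusted p = 0.00591). MED25, bound by several viral and cellular activators, rose by 0.40 ± 0.09, and MED15 and MED23 were at -0.04 and -0.02.

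The kinase module changed unequally. CDK8, the kinase, rose from 26.8, 26.7 and 24.1 CPM to 38.6, 38.3 and 31.3 CPM, by 0.48 ± 0.11 on the log2 scale (edgeR adjusted p = 0.00810). MED12, which activates the kinase through cyclin C, went from 91.2, 89.8 and 85.2 CPM to 46.8, 45.6 and 68.2 CPM, by -0.73 ± 0.15 (edgeR adjusted p = 0.00476). MED13, which tethers the module to core Mediator, went from 120, 129 and 126 CPM to 69.4, 73.1 and 97.6 CPM, by -0.64 ± 0.13 (edgeR adjusted p = 0.00435). Their relatives MED12L and MED13L were at -0.01 and -0.14 and were not called with all libraries. Without panobinostat replicate 4, MED13L was called lower, at -0.14. The log2 ratio of MED12 to CDK8 counts, chosen after its values were seen, was 1.77, 1.75 and 1.82 in DMSO and 0.28, 0.25 and 1.12 with panobinostat.

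**Figure D3:**
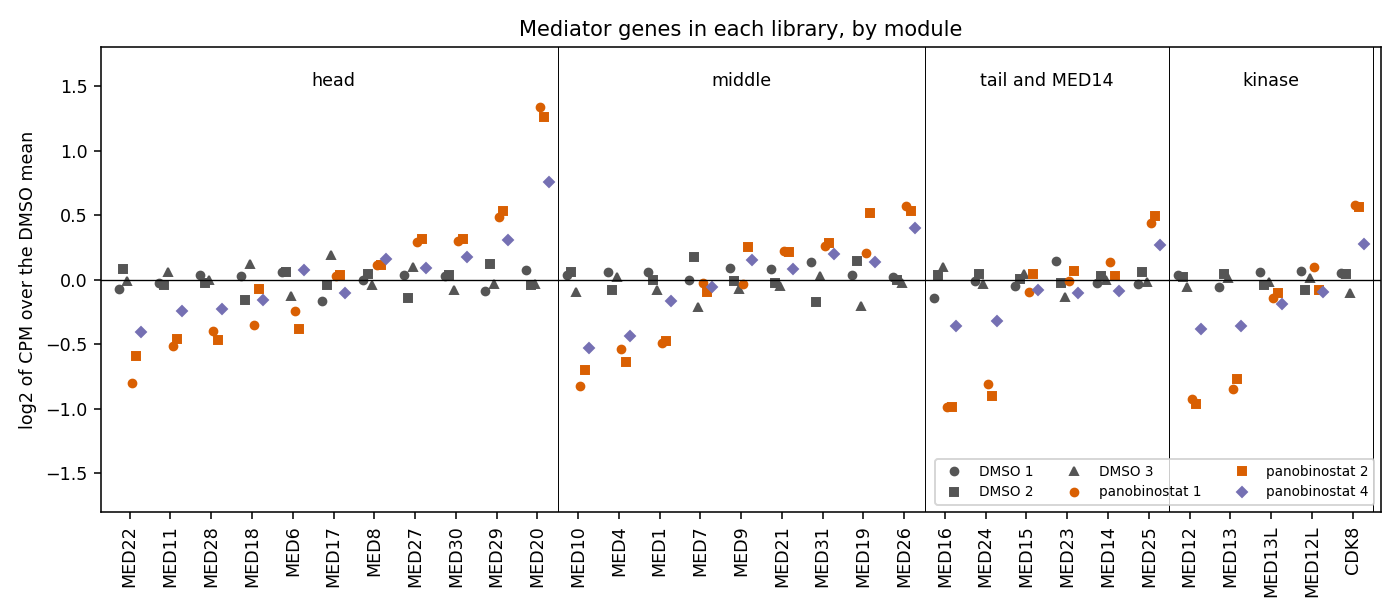
Log2 of CPM over the DMSO mean for the 31 tested Mediator genes in each library, ordered by module; grey symbols are DMSO libraries, orange symbols panobinostat replicates 1 and 2, and purple diamonds panobinostat replicate 4. MED20 lies above all other genes, whereas MED16, MED24, MED12 and MED13 lie lowest in the tail and kinase modules.

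Integrator, the complex with an RNA endonuclease and a bound phosphatase, split almost evenly. Of 15 tested genes 6 rose (40.0%, against 30.2% of all tested genes), 5 fell (33.3%, against 28.6%) and 4 were not called. The summed CPM hardly moved, from 716.7 ± 7.83 to 713.5 ± 14.7 (SD, n = 3). INTS5, a scaffold subunit, went from 46.4, 46.0 and 49.2 CPM to 77.5, 76.3 and 61.0 CPM, a log2 fold change of 0.61 ± 0.11 (edgeR adjusted p = 0.00299). INTS8, which holds the phosphatase, rose by 0.52 ± 0.09 (edgeR adjusted p = 0.00327).

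INTS1, the largest subunit, and INTS11, the endonuclease, were called at 0.29 ± 0.08 and 0.29 ± 0.09. INTS11 read 72.1, 71.4 and 69.6 CPM in DMSO and 92.2, 91.9 and 76.0 CPM with panobinostat. INTS12, a small subunit with a PHD finger, and INTS13, of the enhancer-linked module, were each called at 0.45, with standard errors of 0.14 and 0.15. In each of these last 4 genes, the call was lost in turn without DMSO replicate 1, DMSO replicate 2, panobinostat replicate 1 and panobinostat replicate 2. Called rises in the class numbered 2 without any of those libraries and 3 without DMSO replicate 3.

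INTS6, which recruits protein phosphatase PP2A, had the largest Integrator fall. It went from 49.2, 48.5 and 46.3 CPM to 22.7, 19.8 and 34.8 CPM, a log2 fold change of -0.90 ± 0.19 (edgeR adjusted p = 0.00502). The groups did not overlap, and the value without panobinostat replicate 4 was -1.14. INTS6L, its paralogue, was at -0.28 ± 0.16 and not called. INTS14, which joins INTS10 and INTS13 in 1 module, went from 52.0, 45.1 and 54.2 CPM to 24.7, 26.9 and 36.6 CPM, by -0.79 ± 0.15 (edgeR adjusted p = 0.00432). The 3 genes of that module thus did not move alike: INTS14 and INTS10 fell, INTS10 by 0.43 ± 0.09, and INTS13 was called higher.

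INTS7, a backbone subunit, went from 100, 94.2 and 91.7 CPM to 58.2, 54.6 and 71.5 CPM, a log2 fold change of -0.63 ± 0.11 (edgeR adjusted p = 0.00267). INTS2, another backbone subunit, fell by 0.50 ± 0.13 and lost the call without DMSO replicate 1 (edgeR adjusted p = 0.0515). INTS3, which also forms the SOSS complex, was read at 0.254, 4.54 and 0.464 CPM in DMSO and 0.262, 1.83 and 1.65 CPM with panobinostat, so that libraries of the same group differed widely. INTS15 is listed under C7orf26 and so fell outside the naming rule; it was at -0.19 ± 0.12 and not called.

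Among 10 tested pausing and elongation genes 1 rose (10.0%, against 30.2% of all tested genes), 6 fell (60.0%, against 28.6%) and 3 were not called. The median log2 fold change was -0.28. SUPT5H encodes SPT5, which stays with the polymerase from pause to termination. It rose from 189, 200 and 192 CPM to 296, 295 and 253 CPM, with no overlap, by 0.54 ± 0.08 on the log2 scale (edgeR adjusted p = 0.00146). Of the NELF subunits, NELFA was at 0.02 ± 0.10 and not called. NELFB was called lower at -0.29 ± 0.08, a call lost on leaving out DMSO replicate 1 or 2, or panobinostat replicate 2.

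P-TEFb is CDK9 with cyclin T1 or T2. CDK9 read 66.9, 70.3 and 66.1 CPM in DMSO and 71.5, 76.2 and 70.8 CPM with panobinostat, a log2 fold change of 0.10 ± 0.07 that was not called. CCNT1 was called at -0.28 ± 0.10, a call lost with each library except panobinostat replicate 4 left out. CCNT2 went from 38.5, 48.0 and 41.8 CPM to 25.0, 25.4 and 30.7 CPM, by -0.66 ± 0.13 (edgeR adjusted p = 0.00389).

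HEXIM1, the inhibitor that holds P-TEFb on 7SK RNA, was among the most abundant members and was not called: 226, 250 and 240 CPM against 222, 222 and 245 CPM, at -0.05 ± 0.07. Without panobinostat replicate 4 it was called at -0.10. LARP7 (chr4:112637143-112657586), which binds the 3′ end of 7SK RNA and keeps it stable, went from 68.8, 75.2 and 81.2 CPM to 28.8, 39.5 and 55.3 CPM. All treated values were below the controls, and the log2 fold change was -0.88 ± 0.21 (edgeR adjusted p = 0.00842), or -1.21 without panobinostat replicate 4. None of the 5 P-TEFb and 7SK genes, CDK9, CCNT1, CCNT2, HEXIM1 and LARP7, was called higher by edgeR, where 30.2% of all tested genes were. The count was also 0 at an unadjusted edgeR p under 0.05, by DESeq2 and by limma-voom.

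CDK12 and CDK13, the kinases of the elongating polymerase, fell side by side. CDK12 went from 145, 145 and 144 CPM to 84.7, 87.5 and 116 CPM, by -0.59 ± 0.12 (edgeR adjusted p = 0.00450). CDK13 went from 93.8, 86.1 and 95.8 CPM to 51.9, 58.4 and 74.8 CPM, by -0.58 ± 0.13 (edgeR adjusted p = 0.00700).

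Paralogues were compared as a ratio within each library, a value that scaling of library size does not touch. Of 12 pairs with both genes in the table, 9 separated the groups. Each did so at the smallest two-sided exact permutation p that 3 against 3 libraries allow, 0.1. That p was 0.133 after Benjamini-Hochberg adjustment over the 12, so that no pair could pass 0.05. Among single tested genes 68.9% separated the groups, and the share over other pairs was not computed. Some margins were narrow. The nearest values for CDK8 to CDK19 were 0.0 in DMSO replicate 1 and 0.02 in panobinostat replicate 4. For MED13 to MED13L they were -0.57 and -0.62 in the same libraries. The log2 ratio of MED12 to MED12L went from 3.58 ± 0.09 to 2.85 ± 0.39, and that of MED13 to MED13L from -0.45 ± 0.10 to -0.97 ± 0.30 (SD, n = 3). INTS6 to INTS6L went from 2.27 ± 0.09 to 1.62 ± 0.29. In these 3 pairs the ratio fell toward the L form.

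TAF6 to TAF6L went the other way, from 0.97 ± 0.04 to 1.90 ± 0.35. CDK8 to CDK19 rose from -0.19 ± 0.17 to 0.24 ± 0.20, and CCNT1 to CCNT2 from 0.53 ± 0.16 to 0.89 ± 0.12. TBP to TBPL1 had the widest shift of the well-counted pairs, from 0.83 ± 0.09 to -0.61 ± 0.37. TAF5 to TAF5L moved only from -0.16 ± 0.04 to -0.41 ± 0.03. TAF7 to TAF7L also separated, but TAF7L had 2 counts over DMSO and 12 over panobinostat. HEXIM1 to HEXIM2 and TAF4 to TAF4B overlapped (exact permutation p = 0.2), as did CDK12 to CDK13, at 0.66 ± 0.09 and 0.64 ± 0.06 (exact permutation p = 0.8).

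**Figure D4:**
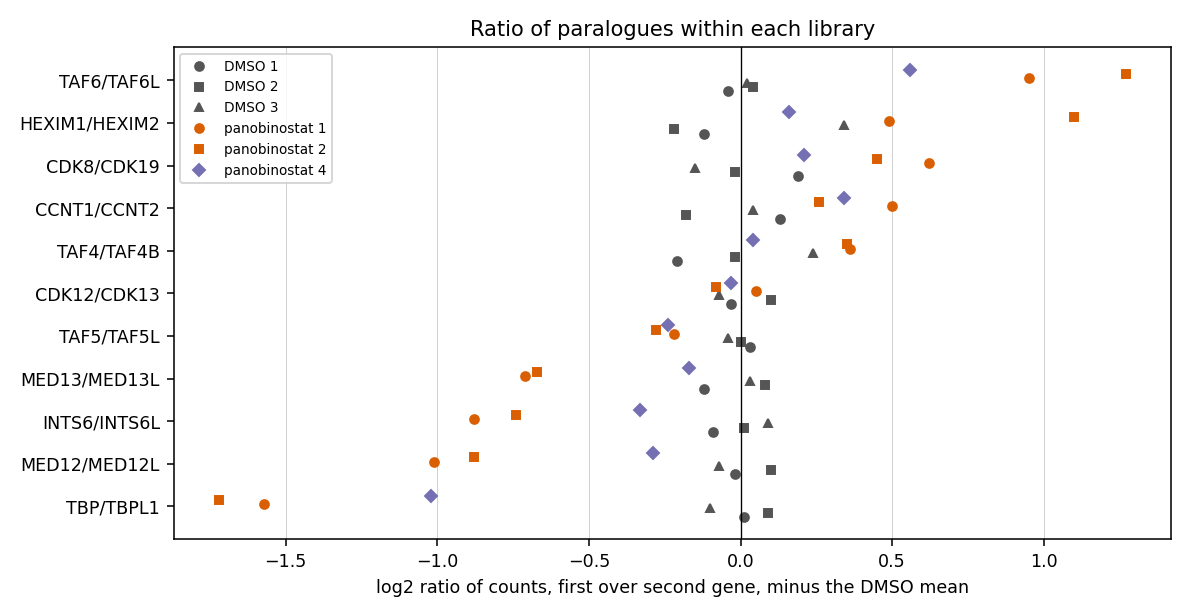
Log2 ratio of counts within each library for 11 pairs of related genes, first gene over second, minus the DMSO mean of that pair; grey symbols are DMSO libraries, orange symbols panobinostat replicates 1 and 2, and purple diamonds panobinostat replicate 4. TBP/TBPL1 shifts farthest to the left, by 1.44 on average, and TAF6/TAF6L farthest to the right, by 0.92, while the CDK12/CDK13 points of both groups overlap.

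Other genes of the same pathway, listed by complex, gave 20 rises and 22 falls among 68 tested, or 29.4% and 32.4%, near the 30.2% and 28.6% of all tested genes. Of 8 tested genes listed for the super elongation complex, which brings P-TEFb to chromatin, 7 rose (87.5%). The list leaves out P-TEFb itself, whose genes CDK9, CCNT1 and CCNT2, given above, were not called higher. MLLT1 was not called at -0.18, and was called lower without panobinostat replicate 4, at -0.26. EAF2 rose by 2.53 ± 0.30 (edgeR adjusted p = 0.000887), ELL2 by 0.80 ± 0.13 and MLLT3 by 0.44 ± 0.12 on the log2 scale. EAF2 was low, at 0.761, 0.993 and 0.619 CPM in DMSO and 5.63, 4.03 and 3.75 CPM with panobinostat. ELL2, an elongation factor, went from 99.1, 105 and 102 CPM to 186, 206 and 141 CPM. The call for MLLT3 was lost without DMSO replicate 1 or 3.

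Cleavage and termination genes went the other way. Of 16 tested genes 10 fell (62.5%, against 28.6% of all tested genes). CPSF7 (-0.85 ± 0.15), CPSF2 (-0.65 ± 0.13) and PCF11 (-0.58 ± 0.16), whose products act where the messenger RNA is cut, fell most. No gene of this list was called higher by edgeR, where 30.2% of all tested genes were, and 1 was higher at an unadjusted p under 0.05. DESeq2 called 0 higher and limma-voom with quality weights 3. Without panobinostat replicate 4, 3 rose. The call for PCF11 was lost without DMSO replicate 1.

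MEPCE, the enzyme that caps 7SK RNA and the partner of LARP7, had the deepest fall among these genes. It went from 103, 111 and 113 CPM to 17.8, 18.7 and 61.0 CPM, a log2 fold change of -1.77 ± 0.42 (edgeR adjusted p = 0.00821), or -2.58 without panobinostat replicate 4. The call was lost with no filter (edgeR adjusted p = 0.113). NELFCD, another NELF subunit, fell by 0.64 ± 0.13, and MNAT1, the assembly factor of the CDK7 kinase, rose by 0.83 ± 0.11 (edgeR adjusted p = 0.00116). CCNC and CDK19 of the Mediator kinase module and CCNK, the cyclin of CDK12, were not called. Without panobinostat replicate 4, CCNC and CCNK were called higher, at 0.30 and 0.26.

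Among factors that travel with the polymerase, CTR9, a scaffold of the PAF complex, rose from 151, 162 and 152 CPM to 348, 365 and 249 CPM, by 1.05 ± 0.13 (edgeR adjusted p = 0.00106). RTF1, a further elongation factor, rose by 0.46 and TCEA2, a TFIIS relative, by 0.37, the latter lost with no filter. PAF1, the subunit that names the complex, was called at -0.45 ± 0.14, a call lost without DMSO replicate 2 or 3 or panobinostat replicate 1 or 2. SUPT16H and SSRP1, the pair that form the histone chaperone FACT, fell by 0.69 ± 0.11 and 0.42 ± 0.08.

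In the list of phosphatases and assembly factors, RPRD2, which binds the C-terminal domain, fell by 1.52 ± 0.37 (2.21 without panobinostat replicate 4; lost with no filter). CTDSPL and CTDSP1, small phosphatases of that domain, fell by 0.96 and 0.85. GPN3 and RPAP3, assembly factors of Pol II, rose by 0.74 and 0.68, and CTDP1, the phosphatase FCP1, was called at 0.39, a call lost under DESeq2 and on leaving out any library but panobinostat replicate 4. TBPL1, a TBP relative, went from 18.0, 17.2 and 19.3 CPM to 52.8, 53.5 and 36.1 CPM, by 1.39 ± 0.16 (edgeR adjusted p = 0.000817), and 34.5% of its exon bases overlap a gene on the other strand. BTAF1 and DR1, which remove or block TBP, rose by 0.47 and 0.25; the call for DR1 was lost on leaving out DMSO replicate 2 or 3 or panobinostat replicate 1 or 2.

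NABP1, a single-strand DNA binding protein of the SOSS complex formed with INTS3, rose by 1.67 ± 0.15 (edgeR adjusted p = 0.000576), and INIP by 0.71, whereas NABP2, the alternative to NABP1, was called at -0.34, a call lost with each library except panobinostat replicate 4 left out. Among subunits of Pol I 1 of 7 was called (14.3%, against 58.9% of all tested genes), POLR1F at 0.27. That call was lost under DESeq2 and on leaving out any library but panobinostat replicate 4. Of 11 subunits of Pol III 2 rose (18.2%, against 30.2% of all tested genes), POLR3GL (0.69) and POLR3A (0.43). In the same list 3 fell (27.3%, against 28.6%), POLR3E (-0.79), POLR3D (-0.54) and POLR3B (-0.43). The call for POLR3B was lost on leaving out DMSO replicate 2 or panobinostat replicate 1.

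**Figure D5:**
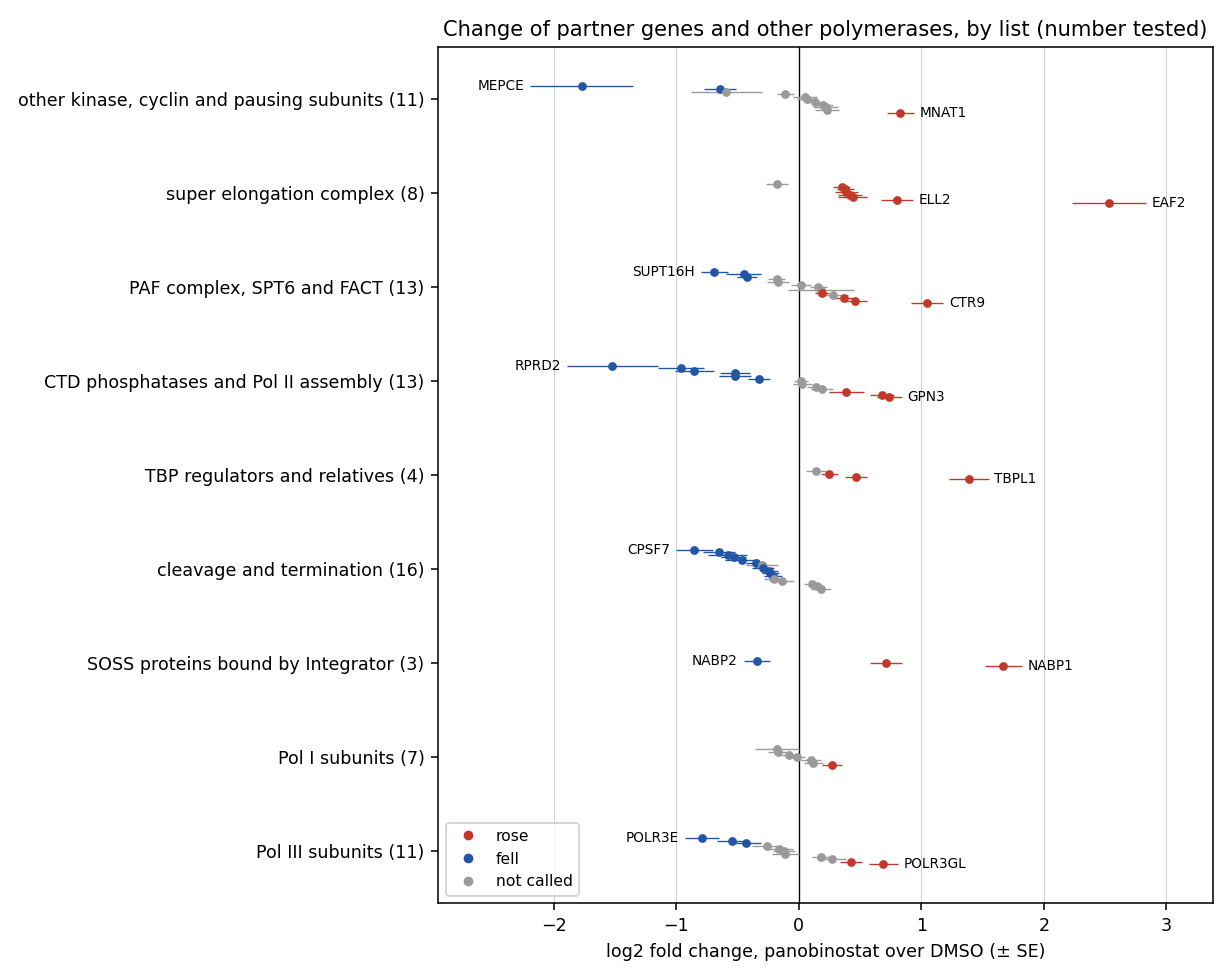
Log2 fold change of panobinostat over DMSO with its standard error for the tested genes of each list of pathway partners and of the other polymerases, 1 point per gene; red points rose, blue points fell and grey points were not called. EAF2 at 2.53 lies farthest to the right and MEPCE at -1.77 farthest to the left, and the cleavage and termination list holds 10 blue points and no red point.

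The 13 members under the filter were listed near 0 and are not read as absent, since several serve every cell. Counts summed over the 3 DMSO and the 3 panobinostat libraries were 1 and 6 for POLR2F, a shared subunit, 5 and 5 for NELFE, 7 and 2 for TAF15, 6 and 1 for GTF2H2 and 13 and 41 for its copy GTF2H2C. GTF2H2C and CDK7 were called higher when fitted with no filter, and the other 11 were not called. In both genes the groups overlapped, and 32 of the 41 panobinostat counts of GTF2H2C were in replicate 1, the deepest library. TAF7L and TAF1L, relatives of TAF7 and TAF1, had 2 and 12, and 2 and 2. POLR2J2 had 22 and 22 under 1 identifier and 1 and 0 under another (ENSG00000267645). The non-coding INTS6-AS1, MED14OS and MED4-AS1 had 14 and 23, 26 and 18, and 0 and 2.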

How the data were processed

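Messenger RNA libraries were made from total RNA with a stranded Illumina kit, per the labels' protocols. The authors deposited raw read counts per gene for 6 libraries, 3 per group, in 1 table; the submitters' processing notes name GRCh38.p14. Which aligner, annotation and strand option were used is not given in the sources here. Reads from overlapping or antisense genes may therefore be shared. Exon bases overlapping other genes made up 12.4% in POLR2B, 22.5% in POLR2L, 20.7% in INTS8, 21.7% in INTS12 and 19.8% in MED25. Among called falls they made up 21.1% in TAF6L, 17.3% in TAF1D and 36.9% in MED11. The deposited sum over libraries (76184320) exceeds that of the 6 libraries used (52742848) and was not used.

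Genes passing filterByExpr were fitted with edgeR 4.0.16 (TMM, robust quasi-likelihood test, group as the sole term, Benjamini-Hochberg over 13341 genes) in R 4.3.3, and called at an adjusted p under 0.05. The scripts were tested on simulated data. SE is the size of the log2 fold change divided by the square root of F. CPM divides counts by library total times TMM factor; per-kb values use exon lengths, and overlaps use exons, of GENCODE 29. Gene coordinates are from RefSeq, GRCh38.p14. Paralogue ratios add 0.5 counts to each gene. Depth limits genes with few counts: those under the filter have counts only.

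Members and lists were chosen with earlier results of these data known. Named members were, per class, up to 4 largest called rises and falls with a mean of at least 1 CPM, fixed key genes (such as TBP, HEXIM1 and CDK9), and members under the filter; from partner lists, up to 3 called per direction; other genes named were added to describe a partner or module after their values were seen. Alternatives were DESeq2 1.42.0, limma 3.58.1 voom with quality weights, DESeq2 and upper-quartile factors, library size alone, no filter (28673 genes, the members otherwise under it included), the replicate number as a block, and each library left out on the genes tested with all libraries.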

Additional observations from a re-analysis of the deposited data

How the results depend on the processing

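No tested member changed direction while called under any of the 13 alternatives. Over all alternatives 16 to 35 members rose and 30 to 47 fell, against 25 and 38. With single libraries left out, called rises ran from 16 to 35 over all members, from 2 to 9 among Pol II subunits, from 2 to 6 in Integrator and from 3 to 6 among TAFs. Pol II rises numbered 9 with limma-voom quality weights, which gave panobinostat replicate 4 a weight of 0.118, and 9 with the replicate block. With no filter, which brings in the 13 members otherwise not tested, TAF rises were 3, against 5; the cause was not tested. Pausing and elongation rises were then 2, against 1, because CDK7 was fitted and called. Calls of 17 members were lost under at least 1 alternative, among them GTF2H1, INTS1, INTS2, INTS11, INTS12, INTS13, MED1, MED11, MED30, NELFB, POLR2C, POLR2L, CCNT1, TAF1C, TAF6, TAF8 and TAF9B. Over all tested genes, 3105 to 5037 rose and 2660 to 4969 fell, against 4032 and 3821.

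The groups share replicate numbers 1 and 2, and the labels give no other link between them. Deviations of same-numbered libraries from their group means correlated at 0.0566 and 0.00774. Pairs with different numbers ran from -0.0670 to 0.0349, so the value for replicate 1 was the highest. With 3 libraries per group these values cannot decide whether the repeats were paired. A fit with the replicate number as a block called 35 members higher and 47 lower, and all 63 calls without the block kept their side of the threshold. In that fit DMSO replicate 3 and panobinostat replicate 4 have no partner of the same number, so the comparison rests on replicates 1 and 2. It is therefore not a check separate from leaving out panobinostat replicate 4, which gave 35 and 46.

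Adding 2 counts in place of 0.5 left every paralogue ratio's direction as it was; the shift of TAF7 to TAF7L went from -2.29 to -1.51. The low depth of the members under the filter, and of GTF2IRD2 and INTS3, limits what can be said of them.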
